A study of Ambystoma mexicanum with 8 samples.

Results

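PRRX1, TWIST1, TWIST2, MEOX2 and PDGFRA are genes by which limb mesenchyme and the connective tissue it forms are commonly recognised. They were followed here in single cells of axolotl limbs. An entry of the deposited gene list was taken as a member when the last symbol in its name was one of these 5. The rule found 8 of 60956 entries. PRRX1 had 3 entries with consecutive identifiers (AMEX60DD018448, AMEX60DD018449 and AMEX60DD018450), and MEOX2 (AMEX60DD022442), TWIST1 (AMEX60DD022296) and PDGFRA (AMEX60DD045542) had 1 each. TWIST2 had 2, one named TWIST2 alone (AMEX60DD055512, called the TWIST2-only entry below) and one that carries both TWIST3 and TWIST2 in its name (AMEX60DD029436, called the TWIST3-TWIST2 entry).

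PRRX1 is a paired-related homeobox transcription factor of limb bud mesenchyme, and in axolotl it marks the connective tissue cells that enter the blastema, the mound of progenitors that rebuilds a limb. TWIST1 and TWIST2 are basic helix-loop-helix transcription factors that pair with E proteins such as TCF3, are antagonised by ID proteins, and act in mesenchyme and dermis. MEOX2 is a homeobox transcription factor of somites, limb mesenchyme and, in mouse and human, blood vessel endothelium. PDGFRA is the receptor tyrosine kinase through which PDGF-A and PDGF-C act on fibroblasts.

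The libraries came from limb tissue of wild-type axolotls. Dissociated cells were stained with Hoechst, calcein and propidium iodide, live cells in the gate for a DNA content of 4 C were sorted, and 10x Genomics 3′ v3.1 libraries were made. Intact libraries (numbers 1, 3, 4 and 5) are read here as homeostatic limbs. Contra libraries (numbers 1, 2, 3 and 5) are read as systemically activated limbs 14 days after an amputation elsewhere on the body, since the labels do not spell the word out. The animals behind each library, and any pooling of them, are not stated, so the spread between libraries may be partly technical. A 4 C gate also lets through a pair of 2 C cells stuck together.

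Of 34149 deposited barcodes, 33756 cells were kept, 10909 Intact and 22847 Contra. Summed UMIs (unique molecular identifiers, which count captured RNA molecules) ran from 13344968 in Intact 5 to 99777499 in Contra 3, and 135 barcodes occurred in more than 1 library. Clusters were named from marker genes that did not include the members, and the members were also kept out of the genes used for clustering. Connective tissue-like cells numbered 16724 (49.5% of the cells) in 13 clusters, epidermal-like cells 10129 and endothelial-like cells 2453, while 2817 cells stayed unnamed. Of these, 725 were in a cluster with fewer than 3 markers of any class raised. Most of the others were in clusters with raised markers of more than 1 class. An example is a cluster of 682 cells with 11 of 14 connective tissue markers and also 9 epidermal markers raised. The summed level of the 14 connective tissue markers in the connective tissue-like class was 77370 to 91340 CPM over the libraries. CPM are UMIs scaled to the same total over the cells concerned (a class, a cluster or all cells) of each library. The epidermal markers summed to 1159 to 2280 CPM in the same cells, the endothelial ones to 47.5 to 72.3 CPM, and the macrophage ones to 46.4 to 62.6 CPM. Connective tissue-like cells made up 66.2% of Intact 3 but 15.4 to 18.1% of the other 3 Intact libraries, and 27.3 to 71.7% of the Contra libraries.

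All 8 entries were used mostly by connective tissue-like cells. That class held 96.9% of the 95948 UMIs of the main PRRX1 entry (AMEX60DD018450), 94.1% of the 150705 UMIs of MEOX2, 95.1% of the 41737 UMIs of TWIST1 and 95.9% of the 51037 UMIs of PDGFRA. For the TWIST3-TWIST2 entry it held 96.5% of 15174 UMIs, and for the TWIST2-only entry 94.9% of 21666. The minor PRRX1 entry AMEX60DD018449 had 10107 UMIs, 96.1% of them in the class, and AMEX60DD018448 had only 186. The last is too sparse for any comparison and is left aside below except in counts. An entry with the MEOX2 identifier but no symbol had 3533 UMIs, 92.8% in the class, and is not a member by the rule. How reads shared between entries of 1 symbol were divided, and whether counting used the strand, is not stated, so the split between entries of PRRX1 and of TWIST2 is uncertain to that extent.

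In connective tissue-like cells the main PRRX1 entry stood at 423 ± 54.5 CPM (SD over 8 libraries), against 7.06 CPM in epidermal-like cells. MEOX2 stood at 674 ± 98.3 against 12.2 CPM, TWIST1 at 170 ± 12.7 against 2.75 CPM, and PDGFRA at 208 ± 21.1 against 3.53 CPM. Drawn down to 2000 UMIs per cell, 40.6% of connective tissue-like cells had a UMI of the main PRRX1 entry and 1.59% of epidermal-like cells, a type not known to use it. At that depth MEOX2 was seen in 44.7% and 2.36%, PDGFRA in 32.2% and 0.802%, and TWIST1 in 21.9% and 0.570%. The draw left out 659 shallower connective tissue-like cells (median 13440 UMIs in those used) and 1530 epidermal-like cells (median 5052). Without thinning, 75.0% of the connective tissue-like cells had a UMI of the main PRRX1 entry, 69.9% of MEOX2, 77.5% of PDGFRA and 58.6% of TWIST1. MEOX2 averaged 15.3 CPM in macrophage-like, 23.4 CPM in erythroid-like and 31.6 CPM in T cell-like cells, and the main PRRX1 entry 14.0, 17.7 and 10.0 CPM in the same classes. Mast cell or basophil-like cells had 22.5 CPM of PRRX1 and 50.6 CPM of MEOX2. Levels near those of epidermal-like cells were read as background, and the part of free RNA in the mast cell or basophil-like values was not tested.

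Bone or periosteum-like cells, a cluster of 92, carried a different mix. TWIST1 stood at 161 CPM in Intact 3 and 154 CPM in Contra 3, the only libraries with at least 20 of these cells, which is within the range of connective tissue-like cells. The TWIST2-only entry stood at 66.2 and 71.6 CPM in the same libraries. MEOX2 averaged 12.9 CPM and the TWIST3-TWIST2 entry 0.440 CPM, levels like those of epidermal-like cells. The main PRRX1 entry was at 12.9 and 85.7 CPM and so differed widely between them.

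**Figure D1:**
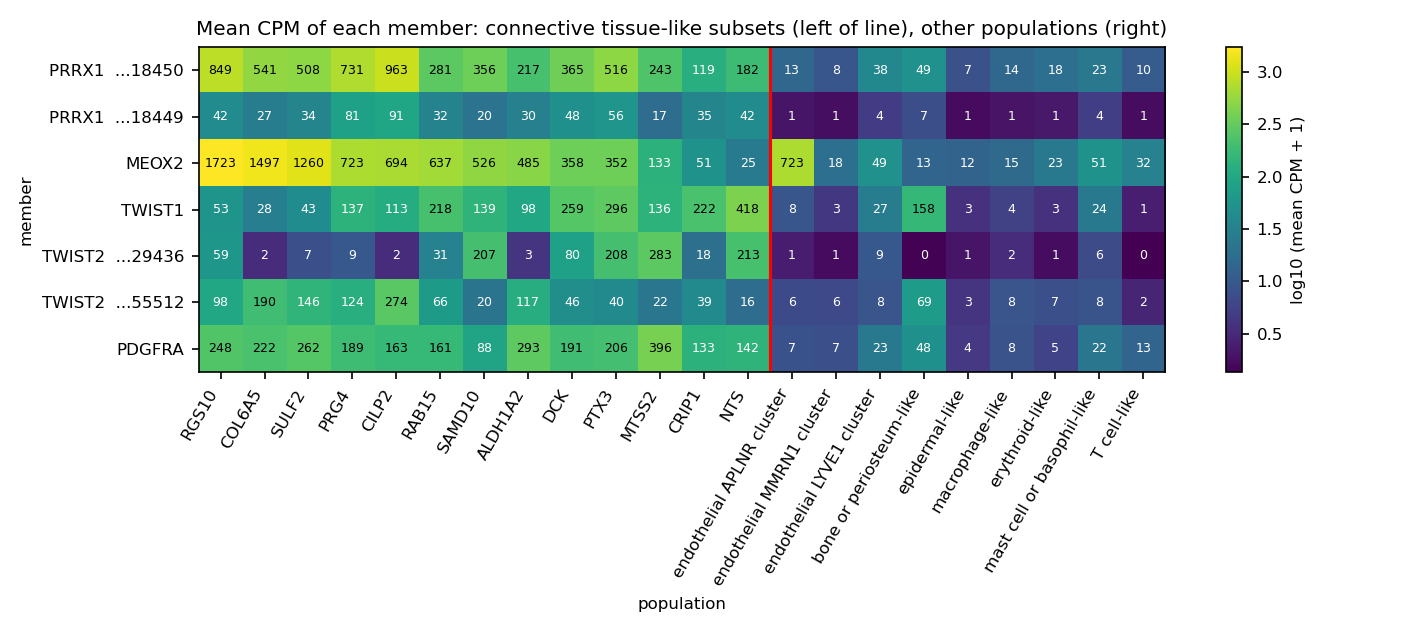
Mean level in CPM (printed in each box, colour by log10 of mean CPM plus 1) of 7 member entries (rows) in the 13 connective tissue-like clusters, left of the red line, and in 9 other populations, right of it. MEOX2 is the one member high in the endothelial-like cluster led by APLNR (723 CPM), and the TWIST2 entries are high in different connective tissue-like clusters, the TWIST3-TWIST2 entry at 283 CPM and the TWIST2-only entry at 21.6 CPM in the MTSS2 cluster.

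MEOX2 had a place outside connective tissue. Of the 3 endothelial-like clusters, the one led by APLNR (705 cells, with PLVAP, ESAM and FLT1, genes of blood vessel endothelium, among its leading genes) held MEOX2 at 596, 819, 924 and 621 CPM in Intact 1, 3, 4 and 5 and at 608, 673, 620 and 792 CPM in Contra 1, 2, 3 and 5. The cluster led by MMRN1 (1091 cells, with PROX1 and FLT4, genes of lymphatic endothelium) lay between 12.6 and 24.2 CPM in the same libraries, and the cluster with LYVE1 (657 cells) between 0 and 82.1 CPM. The APLNR cluster was therefore above both others in all 8 libraries, by 9.33 to 38.6 times the higher of them, and its mean of 723 ± 123 CPM (7 libraries with at least 20 cells) was close to that of connective tissue-like cells. Intact 1 had only 11 cells of it.

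The other members were low in the same cells. In the APLNR cluster the main PRRX1 entry averaged 13.3 ± 10.7 CPM, PDGFRA 7.23 ± 5.66 CPM, TWIST1 8.30 CPM and the TWIST2 entries 1.34 and 5.76 CPM. At 2000 UMIs 47.4% of its cells (exact 95% interval 43.5 to 51.4%, counting error only) had MEOX2, while 2.52% had the main PRRX1 entry and 1.42% PDGFRA.

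**Figure D2:**
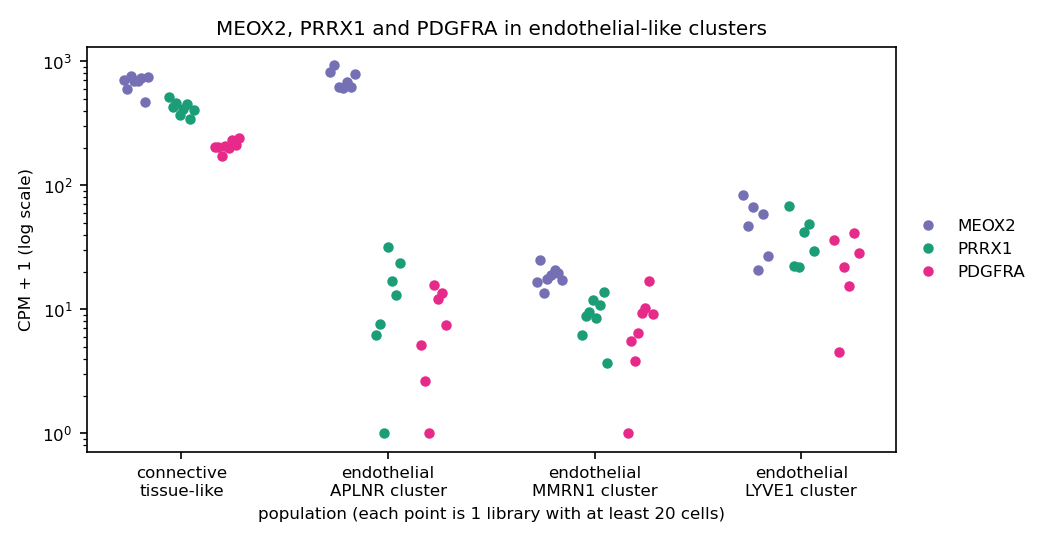
CPM plus 1 (log axis) of MEOX2, PRRX1 AMEX60DD018450 and PDGFRA in connective tissue-like cells and in the 3 endothelial-like clusters, each point being 1 library with at least 20 cells. MEOX2 in the APLNR cluster lies at the height of connective tissue-like cells, and PRRX1 and PDGFRA lie far below it there.

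Among the 13 connective tissue-like clusters, here named by a leading gene, the members did not share an order. Levels in these clusters are given as description, with the SD over libraries holding at least 20 cells of the cluster. MEOX2 was highest in the RGS10 cluster (957 cells, which also had SLC6A2), with 1234 CPM in the lowest library, a median of 1790 CPM and 2061 CPM in the highest. The COL6A5 cluster (2661 cells) followed at 1497 ± 130 CPM, not apart beyond the spread, and the SULF2 cluster (1332 cells, with ACAN, the aggrecan gene) at 1260 ± 171 CPM. The PRG4, CILP2 and RAB15 clusters lay between 637 and 723 CPM and did not differ beyond their spread. MEOX2 was 352 ± 79.2 CPM in the PTX3 cluster, 133 ± 45.6 CPM in the MTSS2 cluster, and lowest in the CRIP1 cluster (50.7 ± 30.7 CPM) and the NTS cluster (25.2 ± 3.78 CPM). At 2000 UMIs it was still seen in 9.88% of CRIP1 cells and 4.04% of NTS cells, against 2.36% of epidermal-like cells.

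The order of TWIST1 ran largely opposite. The NTS cluster (456 cells) was highest, with 340 CPM in the lowest of 5 libraries and 492 CPM in the highest, and the PTX3 cluster (2362 cells, with HAS2, a hyaluronan synthase) followed at 296 ± 28.4 CPM. The DCK cluster (281 cells led by histone genes), the CRIP1 cluster and the RAB15 cluster followed at 218 to 259 CPM, and from the PTX3 cluster down to these no neighbours in the order differed beyond their spread. The lowest were the RGS10 cluster at 53.3 ± 13.1, the SULF2 cluster at 43.4 ± 11.4 and the COL6A5 cluster at 27.6 ± 5.73 CPM, where no library passed 37.6 CPM. Over the 13 clusters, Pearson's r between MEOX2 and TWIST1 was -0.72, taken on log2 of CPM plus 1 with all libraries of a cluster pooled. It is a description over clusters that share their libraries and were made from the same cells.

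PRRX1 was the most even of the factors and stayed above background in every cluster. Its main entry was highest in the CILP2 cluster (314 cells, with RUNX2 and TNMD, genes of skeletal and tendon cells), at 963 ± 168 CPM, with the RGS10 cluster at 849 ± 170 CPM and the PRG4 cluster (1355 cells, named for the joint lubricant lubricin) at 731 ± 130 CPM. Neighbours among these did not differ beyond the spread, and the COL6A5, PTX3 and SULF2 clusters had 508 to 541 CPM. It was lowest in the NTS cluster (182 ± 42.3 CPM) and in the CRIP1 cluster (119 ± 21.9 CPM), whose leading genes include the epidermal keratin gene KRT5. Across the 13 clusters it went with MEOX2 (r = 0.78 on the same pooled log2 scale).

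PDGFRA spanned the narrowest range. It was highest in the MTSS2 cluster (220 cells, with COL7A1 and SEMA3A), at 354, 372 and 462 CPM in its 3 libraries, and next in the ALDH1A2 cluster (2383 cells, led by the retinoic acid synthesis enzyme) at 293 ± 38.3 CPM. From there through the SULF2 cluster (262 ± 38.6 CPM) down to the CRIP1 cluster (133 ± 17.8 CPM), no neighbours in the order differed beyond their spread. The SAMD10 cluster (383 cells, with COL11A1) lay below them at 88.5 ± 14.0 CPM.

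The TWIST2 entries divided the connective tissue-like clusters between them. The TWIST3-TWIST2 entry was highest in the MTSS2 cluster (283 ± 70.02 CPM). The NTS cluster (213 ± 27.7 CPM), the PTX3 cluster (208 ± 33.1 CPM) and the SAMD10 cluster (207 ± 46.3 CPM) followed and did not differ beyond their spread. It was 2.38 ± 1.49 CPM in the COL6A5 cluster, where it reached 3.73 CPM in the highest library, and 2.40 CPM in the CILP2 cluster. The TWIST2-only entry was highest in those same clusters, at 274 ± 31.1 CPM in the CILP2 cluster and 190 ± 15.8 CPM in the COL6A5 cluster, followed by 146 ± 21.7 CPM in the SULF2 cluster. It was lowest in the MTSS2, SAMD10 and NTS clusters, at 16.5 to 21.6 CPM, and stood at 40.2 ± 9.04 CPM in the PTX3 cluster. Over the 13 clusters the entries had r = -0.90 with each other on the same pooled log2 scale.

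Because both entries were counted in the same cells, their split needs no scaling between clusters. In the COL6A5 cluster 73 UMIs fell on the TWIST3-TWIST2 entry and 4529 on the other, a share of 1.59%, and no library passed 1.83%. In the PTX3 cluster the counts were 8925 and 1923, a share of 82.3%, with 77.1 to 90.4% over the libraries. The CILP2 and ALDH1A2 clusters had 0.964% and 3.20%, and the NTS, SAMD10 and MTSS2 clusters 92.3 to 95.4%. Clusters in between were CRIP1 with 27.7% (22.1 to 33.5% over libraries), RAB15 with 31.5%, RGS10 with 32.9% (24.9 to 60%) and DCK with 60.3%. The SULF2 and PRG4 clusters had 4.71% and 7.85%. Over the class as a whole 4385 cells had a UMI of the TWIST3-TWIST2 entry, 8249 of the TWIST2-only entry and 1793 of both.

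**Figure D3:**
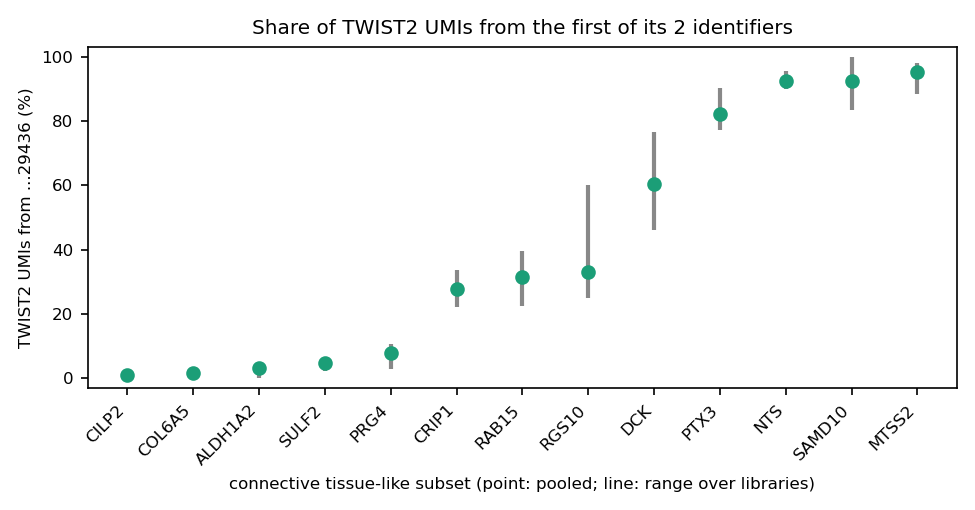
Percent of TWIST2 UMIs that fell on the TWIST3-TWIST2 entry in each connective tissue-like cluster, the point being all libraries together and the line the range over libraries with at least 20 UMIs of the TWIST2 entries in the cluster. The clusters run from 0.964% (CILP2) to 95.4% (MTSS2), and the class as a whole stood at 41.6%.

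The PRRX1 entries kept a narrower split. The minor entry AMEX60DD018449 took 9.47% of the UMIs of both in the class as a whole, with 7.36 to 10.5% over the libraries. The share was 22.7% in the CRIP1 cluster (20.4 to 25.7%) and 18.6% in the NTS cluster, against 4.58% in the COL6A5 cluster (4.06 to 5.53%) and 5.12% in the RGS10 cluster. The ranges of the CRIP1 and COL6A5 clusters did not meet.

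Genes with the pattern most like each member were found over the 37 clusters of all cells, by Pearson's r of the same pooled log2 levels over 11965 entries. The main PRRX1 entry was most like CACNA1G (r = 0.97), a calcium channel gene, and then B3GNT9 and MRC2 (0.96 each), MRC2 encoding a collagen uptake receptor. TWIST1 was most like LUM (0.99), the matrix proteoglycan lumican, then OLFML3 (0.97). PDGFRA was most like OLFML2B and MRC2 (0.97 each) and COLEC12 (0.96). The TWIST2-only entry had lower values and was most like TBX18, PTPRD and TBX5 (0.93 to 0.94), TBX5 being the T-box factor of forelimb buds. MEOX2 was most like an entry named FLJ21120 and the HMCN1 entries, hemicentin genes (0.94 each).

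Within single connective tissue-like cells, pairs of members were then compared at 2000 drawn UMIs, entries of 1 symbol summed. Over the 8 libraries MEOX2 was found in 53.8 ± 4.80% of cells with PRRX1 and in 42.1 ± 5.32% of cells without it, a difference of 11.6 points. It was higher in 8 of 8 libraries, by at least 2.29 points (2-sided exact sign-flip test p = 0.00781, the smallest 8 libraries allow; adjusted over 10 pairs 0.0260). MEOX2 was found in 35.3 ± 3.003% of cells with TWIST1 and in 50.5 ± 5.32% of cells without, a difference of -15.3 points that lay between -19.9 and -9.78 in the 8 libraries (adjusted exact p = 0.0260). PDGFRA was in 35.0% of cells with MEOX2 and 29.5% without, a difference of 5.45 points in the same direction in 8 of 8 libraries (adjusted exact p = 0.0260). The difference for TWIST2 given PRRX1 was 2.85 points (7 of 8 libraries) and for PDGFRA given TWIST1 -4.44 points (lower in 7 of 8 libraries), both at an adjusted exact p of 0.0313. The other 5 pairs did not pass, TWIST2 with PDGFRA coming nearest at 4.59 points (6 of 8 libraries, adjusted exact p = 0.0651). TWIST2 here sums 2 entries that ran opposite over the 13 clusters (r = -0.90 on pooled log2 levels). With the main PRRX1 entry, the TWIST2-only entry had r = 0.63 and the TWIST3-TWIST2 entry -0.26 on the same scale. The pairs with TWIST2 therefore mix different patterns, and the entries were not tested apart.

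The differences were also taken within clusters and averaged. PRRX1 with MEOX2 was then 6.40 points and still higher in 8 of 8 libraries, by 1.12 to 15.1 points, at the smallest exact p that 8 libraries allow (0.00781). As the one pair at that p, it had an adjusted exact p of 0.0781 over the 10 pairs, the lowest that a lone pair can reach. TWIST1 with MEOX2 was -3.50 points, lower in 6 of 8 libraries (adjusted exact p = 0.234), and 0 of 10 pairs passed. MEOX2 with PDGFRA was 2.72 points within clusters, higher in 6 of 8 libraries (adjusted exact p = 0.156). With the cells of highest doublet score left out, the pairs were at 11.8 and -15.4 points, much as before. With 1 library left out the smallest p that the test allows is 0.0156, and the number of pairs passing ran from 0 (without Intact 3, Intact 4 or any one Contra library) to 7 (without Intact 1).

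Contra was compared with Intact in connective tissue-like cells, the question being whether an amputation elsewhere goes with a change of these genes in uninjured limbs. No member passed the test. PDGFRA was at 203, 204, 170 and 208 CPM in Intact 1, 3, 4 and 5 and at 199, 232, 210 and 240 CPM in Contra 1, 2, 3 and 5, so that the groups overlapped only through Contra 1. Its mean was 220 ± 18.8 CPM in Contra and 196 ± 17.4 CPM in Intact. The log2 fold change was 0.30 ± 0.10 (SE; 95% interval 0.07 to 0.52; edgeR unadjusted p = 0.0152, adjusted 0.623). Numbers 1 and 3 were taken as a set because of earlier results of these data, which are not shown here. No label names such a set. Within numbers 1 and 3 the difference of mean log2 CPM was 0.01, and within the other numbers it was 0.33. Neither was tested, and neither uses the scaling factors of the fit (given below).

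The main PRRX1 entry was at 513, 428, 460 and 371 CPM in the Intact libraries and at 413, 455, 338 and 406 CPM in the Contra libraries, groups that overlapped (log2 fold change -0.01 ± 0.12). MEOX2 was at 708, 594, 756 and 696 CPM in Intact and at 688, 736, 465 and 746 CPM in Contra, with the lowest value in Contra 3 (0.06 ± 0.11). TWIST1 was at 186, 188, 153 and 169 CPM in Intact and at 171, 155, 173 and 165 CPM in Contra (0.06 ± 0.12). The TWIST3-TWIST2 entry differed by 0.19 ± 0.13 and the TWIST2-only entry by 0.05 ± 0.10. The 95% intervals were -0.28 to 0.25 for the main PRRX1 entry, -0.19 to 0.31 for MEOX2 and -0.21 to 0.33 for TWIST1.

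Of the 8 entries, 0 passed an adjusted p of 0.05 in edgeR, where 0% of 32142 genes passed, and 1 (PDGFRA) had an unadjusted p under 0.05, where 7.7% of all genes did. DESeq2 also called 0 of the 8, and 0.451% of the 12201 genes that it gave an adjusted p. The members' median log2 fold change was 0.06, beside -0.003 for all genes. The scaling factors of TMM were 0.135 lower on the log2 scale in Contra than in Intact, so fitted changes are that much higher than ratios of the CPM above. The same simulated design recovered 62 of 100 genes changed 2-fold and 87 of 100 changed 4-fold, at 13 false calls among 32142 genes. The changed genes were drawn at random from those tested, and no change under 2-fold was simulated. How often changes as small as those of the members would be found was therefore not tested.

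**Figure D4:**
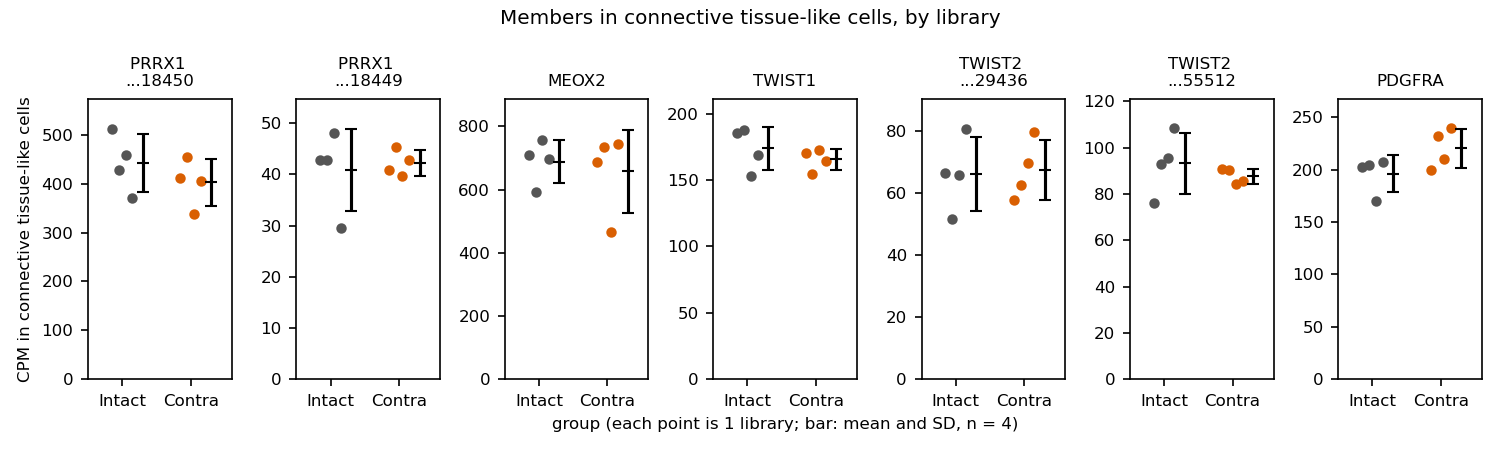
CPM of 7 member entries in connective tissue-like cells, each point 1 library, with the mean and SD of the 4 libraries of each group and axes that start at 0. Contra and Intact overlapped for every entry, PDGFRA being higher in 3 of 4 Contra libraries than in any Intact library.

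The comparison was repeated in the 7 clusters with enough cells in both groups, giving 47 member tests. None passed in edgeR (0% of genes were called in each of the 7). PDGFRA was above 0 in 7 of 7 clusters, from 0.10 in the COL6A5 cluster to 0.41 in the PTX3 cluster. In the PTX3 cluster it stood at 169, 206, 165 and 193 CPM in Intact 1, 3, 4 and 5 and at 229, 225, 221 and 237 CPM in Contra 1, 2, 3 and 5. These groups did not overlap, as was so for 5.76% of the genes tested there. The log2 fold change of 0.41 ± 0.12 had an edgeR unadjusted p of 0.0037, where 7.6% of genes were under 0.05. Its adjusted p was 0.490 in edgeR, over 17125 genes. In DESeq2 the adjusted p was 0.04998, over only the 1189 genes that were given one, of which 2.94% were called. The clusters share their libraries and are not independent of each other. The main PRRX1 entry was above 0 in 2 of 7 clusters, TWIST1 in 2 of 7 and MEOX2 in 3 of 7.

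The share of cells with a UMI at 2000 drawn UMIs was compared as well. For the main PRRX1 entry it was 45.4 ± 3.93% in Intact and 40.9 ± 4.13% in Contra (SD, n = 4 each; 2-sided exact permutation p = 0.229, where the smallest possible is 0.0286). For PDGFRA it was 31.5% and 32.9%, for TWIST1 20.7% and 21.5%, and for MEOX2 48.8 ± 3.33% and 45.9 ± 6.10%. None of the 8 passed, the smallest adjusted p being 0.653. A lone entry at the smallest possible p would not pass either once adjusted over the 8.

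Summed over all cells, every member was higher in Contra, and so was the share of connective tissue-like cells. In Intact 1, 3, 4 and 5 PDGFRA was at 31.9, 150, 44.1 and 38.4 CPM and connective tissue-like cells made up 18.1, 66.2, 17.6 and 15.4%. In Contra 1, 2, 3 and 5 it was at 146, 142, 158 and 115 CPM and the shares were 66.3, 52.2, 71.7 and 27.3%. Intact 3 was the one Intact library that reached the Contra levels, and its share of connective tissue-like cells was also in the Contra range. In such sums fewer cells of a type and less RNA per cell cannot be told apart.

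Of the 8 entries 0 passed over all cells (0% of 37375 genes; 7.5% unadjusted), with a median log2 fold change of 0.85 beside -0.01 for all genes. PDGFRA was at 1.06 ± 0.45 (adjusted p = 0.514) and the TWIST3-TWIST2 entry at 1.08 ± 0.34 (edgeR unadjusted p = 0.0119). Without Intact 3, 7 of 8 were called, with log2 fold changes of 1.37 (MEOX2) to 1.81 (PDGFRA) and adjusted p of 0.0053 to 0.0113, beside 15.7% of 36099 genes. The part of the class share in this was not tested over all cells. The comparison within connective tissue-like cells, given above, holds the class fixed but not its mix of clusters.

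In the APLNR endothelial-like cluster the comparison rested on 7 libraries and 3 members, and 0 of the 3 passed (0.00937% of 10668 genes were called; 9.38% unadjusted). MEOX2 averaged 673 ± 84.1 CPM in Contra and 788 ± 154 CPM in Intact (log2 fold change -0.15 ± 0.16, adjusted p = 0.818). The main PRRX1 entry was at 20.4 and 3.93 CPM (2.02 ± 0.53, edgeR adjusted p = 0.256) and PDGFRA at 11.2 and 1.93 CPM (2.05 ± 0.58, adjusted 0.294). With Intact levels this low, both passed the filter on low counts through their Contra counts. Their changes are therefore description and no support for a difference between the groups. Epidermal-like cells, at lower Contra levels, also had higher means in Contra, at 9.34 against 4.78 CPM for PRRX1 and 4.93 against 2.14 CPM for PDGFRA. The part that free RNA or mixed droplets have in these low levels was not tested.

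Cells with a UMI of TOP2A, the topoisomerase of replicating and dividing cells, were compared with cells without one in the same library. In the connective tissue-like class 1718 of 16724 cells (10.3%) had TOP2A, between 4.84 and 11.8% of a library, and they held more UMIs (median 17200 against 12630). Intact 1 and Intact 5 had only 14 and 22 such cells. The share differed between clusters, from 3.51% of the NTS, 4.96% of the SAMD10 and 6.34% of the CRIP1 cluster to 10.9% of the PTX3 cluster and 98.2% of the DCK cluster, which held 276 of the 1718 cells. The part of the cluster mix in the class values was not tested beyond the fits within clusters given below. Of 7 entries tested (AMEX60DD018448 was below the filter) 0 passed, against 15.1% of 24262 genes, and 1 had an unadjusted p under 0.05, against 25.7%. The same design recovered 84 of 100 simulated 2-fold changes in genes drawn at random, at 17 false calls. No smaller change was simulated.

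The main PRRX1 entry averaged 460 ± 104 CPM in cells with TOP2A and 417 ± 54.5 CPM without (SD, n = 8), higher in 6 of 8 libraries (log2 fold change 0.11 ± 0.07, adjusted p = 0.321). MEOX2 averaged 680 ± 147 and 675 ± 97.4 CPM and was lower with TOP2A in 6 of 8 (-0.09 ± 0.05, adjusted p = 0.314). TWIST1 averaged 189 ± 51.0 and 168 ± 12.7 CPM (0.04 ± 0.06), and PDGFRA 219 ± 30.0 and 207 ± 20.1 CPM (0.03 ± 0.05). The TWIST2-only entry was lower with TOP2A in 7 of 8 libraries, at 88.2 ± 14.0 and 90.9 ± 9.28 CPM (-0.13 ± 0.06, edgeR unadjusted p = 0.0306, adjusted 0.139). The TWIST3-TWIST2 entry averaged 70.9 and 66.5 CPM (-0.00 ± 0.06). TMM factors were 0.0761 higher on the log2 scale in the sums with TOP2A (0.039 with RLE). This puts fitted changes below ratios of the CPM, by an amount near the size of several of them. Whether the contrast differed between Contra and Intact was tested as an interaction, and 0 of 7 entries passed (0.0289% of genes; 3.97% unadjusted).

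**Figure D5:**
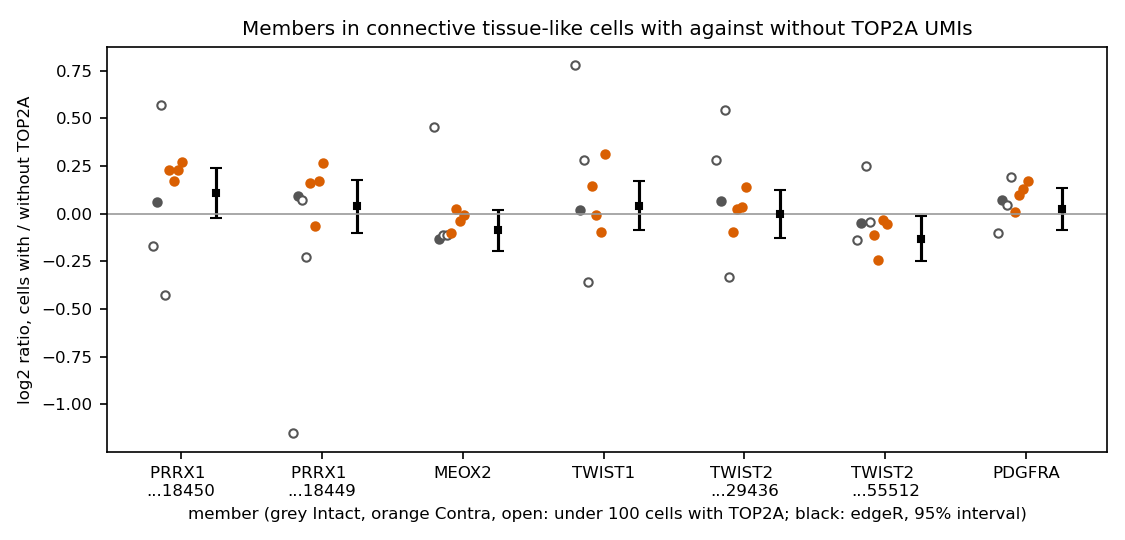
Log2 ratio of CPM in connective tissue-like cells with against without a TOP2A UMI, each point 1 library (grey Intact, orange Contra, open where fewer than 100 cells had TOP2A), with the edgeR log2 fold change and its 95% interval as a black square. The squares lie between -0.13 (TWIST2-only entry) and 0.11 (PRRX1 AMEX60DD018450), and the widest points are open ones.

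Within 8 clusters, 1 of 54 member tests passed. Of all genes tested, 6.75% were called in the COL6A5, 3.6% in the CRIP1, 3.76% in the ALDH1A2, 5.79% in the PTX3, 2.45% in the RAB15, 1.59% in the PRG4, 1.35% in the SULF2 and 0.999% in the RGS10 cluster. In the PTX3 cluster the main PRRX1 entry was at 668, 630, 704, 497 and 446 CPM in cells with TOP2A of Intact 3 and Contra 1, 2, 3 and 5, against 528, 460, 539, 416 and 424 CPM in cells without. It was higher in all 5 libraries (0.22 ± 0.07, adjusted p = 0.0436). The call was lost in DESeq2 (adjusted p = 0.0918) and without a filter on low counts (log2 fold change 0.07, adjusted p = 0.928). It was also lost without Contra 1, 2 or 3 (edgeR adjusted p = 0.194, 0.206 and 0.152). The log2 fold change ran from 0.18 to 0.24 as single libraries were left out. Without Intact 3 the adjusted p was 0.117. With no filter MEOX2 (-0.31) and TWIST1 (-0.28) were called lower with TOP2A in this cluster instead, by edgeR at adjusted p of 0.0016 and 0.0130. The share of all genes called at that setting within the cluster is not given, so these calls are not read as a result about the members. Across the 8 clusters the main PRRX1 entry was above 0 in 7 and the TWIST2-only entry below 0 in 8, from -0.34 to -0.01, none of the latter past the test.

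At other settings of the same contrast the TWIST2-only entry and MEOX2 passed. With TOP2A and members both counted in 2000 drawn UMIs, the TWIST2-only entry was at -0.71 (adjusted p = 0.0103) and MEOX2 at -0.48 (0.0163), beside 11.4% of 9473 genes. In that draw only 3, 82, 14 and 8 cells of Intact 1, 3, 4 and 5 had TOP2A, and 53 to 159 of each Contra library. With at least 2 TOP2A UMIs required, the TWIST2-only entry was at -0.28 (adjusted p = 0.0279), beside 27% of genes. In the DCK cluster, 98.2% of it with TOP2A, MEOX2 averaged 358 ± 104 CPM and the TWIST2-only entry 45.6 ± 9.68 CPM. The part of that cluster in these 2 settings was not tested. Without a filter on low counts they were at -0.19 and -0.14 (adjusted p = 0.0429 and 0.0435), beside 7.11% of genes.

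MKI67, a proliferation antigen gene, gave another set. It was found in 2456 connective tissue-like cells (14.7%), of which 331 also had TOP2A. Beside the 1718 cells with TOP2A, most cells with either gene therefore had no UMI of the other. TWIST1 averaged 142 ± 26.3 CPM in cells with MKI67 and 176 ± 11.8 CPM in cells without, and was lower in 8 of 8 libraries (log2 fold change -0.56 ± 0.06, adjusted p = 1.67e-10). The minor PRRX1 entry (-0.26, adjusted p = 0.0018) and PDGFRA (-0.19, adjusted p = 0.0048) also passed in edgeR. In CPM the minor PRRX1 entry averaged 38.7 with and 42.1 without MKI67 but was higher with it in 5 of 8 libraries, and PDGFRA averaged 216 with and 206 without, higher in 6 of 8. TMM factors differed by 0.285 on the log2 scale between these sums (0.247 with RLE), a shift larger than both of these log2 fold changes. The sign of PDGFRA turns in CPM, and the minor PRRX1 entry is mixed over the libraries. TWIST1 stays lower in CPM, but by less than its fitted -0.56, which also holds this shift. In this split 25.8% of 28049 genes were called, and the median UMI was 17470 with and 12420 without.

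The MKI67 cells were spread unevenly over the clusters. They were 2.14% of the CRIP1 cluster and 2.41% of the NTS cluster, which are high in TWIST1, 12.1% of the DCK cluster and 14.6 to 21.3% of the others. Within clusters, TWIST1 CPM was lower with MKI67 in 5 of 6 libraries of the COL6A5, PTX3 and RAB15 clusters each, in 4 of 5 of the PRG4 cluster and 4 of 6 of the SULF2 cluster, but in only 1 of 5 of the ALDH1A2 and RGS10 clusters each. The part of the cluster mix in the TWIST1 difference was not tested further.

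Genes around the members were read from lists. In connective tissue-like cells, Contra against Intact called 0 genes in each of 5 lists, with medians of 0.03 to 0.16 on the log2 scale beside -0.003 for all genes. The smallest p in the list of other mesenchymal factors was that of SNAI2 (AMEX60DD027457), a zinc finger repressor, at 41.8 CPM in Contra and 28.5 CPM in Intact (0.65 ± 0.16, adjusted p = 0.552), and the other SNAI2 entry was at 0.49 (adjusted p = 0.623). Among bHLH partners and inhibitors ID2 was at 0.61 and ID1 at 0.46, and among limb mesenchyme factors ALX1 at 0.55 and PRRX2, the paralogue of PRRX1, at 0.46. PDGF signalling genes had PIK3R1 at 0.29 and the PDGFRB entry AMEX60DD030143 at 0.19, and blastema genes had FSTL1 at -0.36 and FGF10 at 0.21. None of these passed, with adjusted p of 0.552 or more in edgeR.

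In the TOP2A contrast several listed genes did pass. Over all 24262 genes 15.1% were called (1783 up and 1885 down), the background for the counts that follow. Of 14 entries of PDGF ligands, receptors and signal partners, 0 rose and 5 fell in cells with TOP2A, with a median of -0.19 beside -0.03 for all genes. PDGFRB (AMEX60DD030144), the other PDGF receptor, fell from 87.5 to 66.5 CPM (-0.43 ± 0.06, adjusted p = 8.97e-07), and its entry AMEX60DD030143 was not among the calls. PLCG1, a phospholipase that PDGF receptors activate, fell in both entries (-0.42 and -0.17), as did PLAT (-0.30), the tissue plasminogen activator, and PDGFD (-0.22), a ligand. Of 32 entries of limb mesenchyme factors 4 rose and 3 fell, beside the 15.1% called over all genes. TBX4 (0.49), LHX2 (0.40) and MSX2 (0.32), factors of limb bud and its margin, were among those that rose, and OSR2 (-0.28), EBF3 (-0.23) and OSR1 (-0.23) fell.

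Beside the same 15.1%, of 9 entries of other mesenchymal factors FOXC1 (0.44) and the SNAI2 entry AMEX60DD027457 (0.23) rose and KLF4 (-0.23) fell. The other SNAI2 entry (AMEX60DD039671) was not among the calls. Of 11 blastema and activation genes BMP2 (-0.38), a bone morphogenetic protein, and PTX3 (-0.24), a secreted pentraxin, fell and 0 rose. Of 9 bHLH partners and inhibitors none passed in edgeR, the smallest p being those of ID3 (0.19, adjusted p = 0.123) and TCF3 (-0.13, adjusted p = 0.134). These lists were put together with earlier results of these data known.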

How the data were processed

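Droplet counts came from 8 10x Genomics libraries of sorted 4 C limb cells. The authors deposited UMI counts per gene and cell, whole numbers that were not normalized, per the file itself. The submitters' processing notes name kallisto 0.48.0 and Seurat 4.2.0, and the genome build, annotation release and strand setting are not given in the sources used here. No genome sequence was used, and entries are named as deposited.

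Cells with at least 500 genes were kept. Scrublet called 104 cells (0.307%), 88 of them in Contra 2, and these were removed. They were too few to count as working, and leaving out the 1257 kept cells of highest score was tried in addition. Cells were clustered with scanpy 1.11.5 and leidenalg 0.10.2 (2000 variable genes, 30 principal components, 20 neighbours, resolution 1, members left out). A cluster could be named when at least 3 markers of a class stood at 20 CPM or more and 4-fold or more over the lower quartile of the clusters. It stayed unnamed when markers of an unrelated class were raised at least as often as not, or when such a class led its top genes. Clusters of low UMI count without a class marker among the top genes, or of under 50 cells, also stayed unnamed. Counts were summed per library and tested with edgeR 4.0.16 (TMM, quasi-likelihood test, filterByExpr, Benjamini-Hochberg over all genes tested), and with DESeq2 1.42.0 as an alternative. Exact permutation and sign-flip tests used scipy 1.17.1 or numpy 2.4.6. Library ratios carried a pseudocount of 0.1 CPM, and means by library needed 20 cells, or 10 in each TOP2A arm. The pipeline was tested on simulated data.

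Numbers 1, 3 and 5 occur in both groups. Deviations of same-numbered libraries correlated at -0.0889, 0.691 and 0.528 over 5350 genes, and those of differently numbered libraries at -0.571 to 0.306. Numbers 3 and 5 thus went together and number 1 did not. The main tests did not take the numbers as pairs, and a replicate block was run as an alternative. Member entries past the filter on low counts entered every comparison, and not all of their values are printed. From each list all calls are named up to 6, largest change first, or otherwise the 2 smallest p. The members, lists, rules and the split of numbers 1 and 3 were chosen with earlier results of these data known. One result of the pattern comparison is not reported here. No deposited sample column was left unused (0). Exact intervals on shares of cells cover counting error only, while edgeR intervals include the spread between libraries.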

Additional observations from a re-analysis of the deposited data

Results flagged for a closer look

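In 65 groups of libraries examined, 10 values stood apart from the others of their group by Dixon's criterion, which by chance alone takes about 1 group in 20. In connective tissue-like cells the PDGFRA level of Intact 4 was low, at 170.3 CPM. Over all cells Intact 3 was high among Intact libraries for PDGFRA (150.3 CPM) and for TWIST1 (139.2 CPM), and it was also the one with the high share of connective tissue-like cells.

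In the TOP2A contrast Intact 1, with 14 cells with TOP2A, had the highest log2 ratio for MEOX2 (0.45) and the lowest for PRRX1 AMEX60DD018449 (-1.15, on 4 UMIs). Intact 4 had the highest ratio for the TWIST2-only entry (0.25). In co-detection Intact 1 had the smallest difference for PRRX1 with MEOX2 (2.29 points) and the lowest for TWIST2 with MEOX2 (-11.9 points). Intact 5 had the lowest for PRRX1 with TWIST1 (-13.2 points) and the highest for TWIST2 with PDGFRA (19.3 points). Intact 1 and Intact 5 had the fewest connective tissue-like cells, 289 and 304.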

How the results depend on the processing

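Contra against Intact in connective tissue-like cells had 0 calls among the members under every alternative run (other size factors, DESeq2, no filter, each library left out, the replicate block, a term for numbers 1 and 3, other clusterings, highest doublet scores left out, and the RAB15 cluster left out, the last chosen after seeing the data). Whether the numbers shared between groups pair the libraries is not stated, and they were used as a block only as an alternative. With the replicate block 0 members were called in connective tissue-like cells, all cells and the clusters, and PDGFRA was at 0.22. Signs of small differences turned and the cause was not tested. The values within sets of numbers are differences of mean log2 CPM without TMM factors, not fitted changes. Over all 8 libraries those factors put fitted changes 0.135 above ratios of CPM, so the 2 kinds of value are not on the same scale. PRRX1 AMEX60DD018450 was at 0.00311 without a filter and 0.058 within the numbers other than 1 and 3. Within numbers 1 and 3 MEOX2 was at -0.20, TWIST1 at -0.12 and PRRX1 AMEX60DD018449 at -0.088. Within the other numbers TWIST1 was at -0.010, the TWIST3-TWIST2 entry at -0.046, the TWIST2-only entry at -0.21 and PRRX1 AMEX60DD018448 at 1.34. With 1 library left out PRRX1 AMEX60DD018448 ran from -0.26 to 0.090, PRRX1 AMEX60DD018450 from -0.11 to 0.088, TWIST1 from -0.026 to 0.13 and the TWIST2-only entry from -0.0065 to 0.091. Over all cells the count of calls ran from 0 to 7 as single libraries were left out, 7 being without Intact 3. Within clusters DESeq2 called 1 (PDGFRA in the PTX3 cluster).

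In the TOP2A contrast no filter called 2, drawn UMIs 2, at least 2 TOP2A UMIs 1 and MKI67 3, against 0, and within clusters DESeq2 called 0 and no filter 5 (MEOX2 in 4 clusters and TWIST1 in 1), against 1. For the fits within clusters without a filter no share of all genes called is given, so the 5 are not read as a result about the members. With single libraries left out the count within clusters ran from 0 to 1. With no filter PDGFRA was at -0.028, PRRX1 AMEX60DD018449 at -0.017 and TWIST1 at -0.012, and with drawn UMIs PDGFRA was at -0.081 and PRRX1 AMEX60DD018450 at -0.13. With MKI67 they were at -0.19 for PDGFRA, -0.26 for PRRX1 AMEX60DD018449, -0.0036 for PRRX1 AMEX60DD018450, -0.56 for TWIST1 and 0.044 for MEOX2. The TWIST3-TWIST2 entry was at 0.014 with DESeq2, at 0.011 without the highest doublet scores and at 0.058 with at least 2 TOP2A UMIs. As libraries were left out it ran from -0.037 to 0.031, and TWIST1 from -0.0071 to 0.11. The difference of this contrast between groups was for MEOX2 -0.062 with RLE, -0.070 with DESeq2 and -0.0021 without a filter, and with libraries left out ran from -0.031 to 0.10 for MEOX2, -0.14 to 0.047 for TWIST1 and -0.22 to 0.016 for the TWIST3-TWIST2 entry.

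For the share of cells with a UMI no setting gave a call. With 1 library left out the smallest exact p that the test allows is 0.0571, and with the replicate block 0.25. Those settings could therefore not give a call, and their lack of calls says nothing of robustness. The TWIST3-TWIST2 entry was at -0.126 points without the RAB15 cluster, -0.198 at 1000 UMIs, -0.506 at 4000 UMIs and -0.0616 with the replicate block, and TWIST1 at -0.291 at 1000 and -1.60 at 4000 UMIs. With libraries left out PRRX1 AMEX60DD018449 ran from -0.0891 to 1.55 points and the TWIST3-TWIST2 entry from -0.419 to 0.533. Co-detection, with 5 of 10 pairs passing, had 6 at 4000 UMIs and at Leiden resolution 0.5, 3 without the RAB15 cluster, 2 at 1000 UMIs, 0 within clusters, and 0 to 7 with libraries left out, when fewer libraries raise the smallest p. PRRX1 with TWIST1 was at 0.196 points without the RAB15 cluster and 0.0778 at 1000 UMIs. PRRX1 with PDGFRA was at -0.286 without the RAB15 cluster, -0.536 at 1000 UMIs, -0.317 within clusters, and from -0.294 to 0.745 with libraries left out. TWIST2 with MEOX2 was at 1.04 points in the report, at -0.714 at 1000 UMIs and at 5.95 at 4000 UMIs (8 of 8 libraries, adjusted exact p = 0.0156). TWIST2 with PDGFRA passed at resolution 0.5 (4.93 points, adjusted exact p = 0.0391), and PRRX1 with TWIST2 was at -0.246 within clusters. Depth limits PRRX1 AMEX60DD018448, with 186 UMIs in all, and the TOP2A arms of Intact 1 and Intact 5.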
